A study of Mus musculus with 6 samples.

Results

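The secreted Wnt antagonists described here are 8 genes, Sfrp1, Sfrp2, Sfrp4, Sfrp5, Frzb, Dkk2, Dkk3 and Wif1, taken by gene name from a deposited table of 33919 mouse genes. All 8 were in the table, and 7 of them, all but Wif1, had enough counts to be among the 16620 genes tested. The data are 6 poly(A) RNA sequencing libraries labelled as mouse aorta, 3 with the genotype label WT and 3 with the label KO, and both groups had received Ang II, that is angiotensin II, which constricts vessels, raises blood pressure and causes the arterial wall to thicken. OTUD1 in endothelial cells, an enzyme that removes ubiquitin from proteins, and SMAD3, which transmits TGF-beta signals to the nucleus, are named in the title of the series. The comparison asks what differed between genotypes under Ang II. The labels name the allele only as KO, and neither the strain, age or dose nor a group without Ang II is given in the sources used here. Each group is described as 3 mice, without identifiers of individual animals, so a p-value here measures spread among the libraries of a group, which may be technical. The tissue label is aorta, while the RNA protocol mentions adipose tissue.

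Wnt proteins are secreted ligands that bind Frizzled receptors and the co-receptors LRP5 and LRP6, which leads to stabilisation of beta-catenin and transcription through TCF/LEF factors. Secreted antagonists restrain this signal outside the cell in different ways. The secreted Frizzled-related proteins, encoded by the Sfrp genes and Frzb, carry a Wnt-binding domain like that of the receptors, WIF1 binds Wnt proteins through a domain of another kind, and Dickkopf proteins such as DKK2 act on LRP5 and LRP6. DKK3 is a divergent Dickkopf protein that has not been firmly tied to these co-receptors. In blood vessels and other organs these proteins come largely from fibroblasts and other mesenchymal cells. In the gene annotations of the deposited table all 8 members carried the terms Wnt signaling pathway and extracellular region, and 7, all but Wif1, carried negative regulation of canonical Wnt signaling. Sfrp1, Sfrp2, Sfrp4 and Dkk2 carried the opposite term, positive regulation, as well.

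Several features of the libraries touch every value below. Otud1 had 10.1 ± 1.42 CPM (counts scaled to a common library total) in the WT-labelled libraries and 15.7 ± 1.17 in the KO-labelled ones (SD, n = 3 each), a log2 change of 0.63 (adjusted p = 0.0039 by edgeR's quasi-likelihood test). Otud1 thus went against the label KO, so groups are named by their labels, and every direction given is KO-labelled relative to WT-labelled. Total counts ran from 62335027 to 71525109 per library. Mitochondrial genes and their copies in the nuclear genome took 71.1% to 73.7% of these in the WT-labelled libraries and 64.8% to 67.8% in the KO-labelled ones. The summed level of 15 smooth muscle markers was 645 to 660 CPM in the WT-labelled libraries, against 30622 to 31167 CPM for 20 skeletal muscle markers. WT-labelled library 3 stood apart from the other 2 of its group on the second principal component (-64 against 37.3 and 28.1).

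Of the 7 tested antagonists 5 fell in the KO-labelled libraries (Sfrp2, Dkk3, Sfrp1, Sfrp4 and Frzb), 0 rose, and 2 (Sfrp5 and Dkk2) did not pass an adjusted p of 0.05. Over all genes tested 10.5% were called lower and 11.5% higher. The falls ranged from 2.51-fold for Frzb to 25.6-fold for Sfrp2, and all 5 had a log2 change of -1 or less (3.97% of all tested genes were called with such a change). By DESeq2, which also tested Wif1, 7 members were called lower and 0 higher. Of the 28400 genes it tested 9.32% were called lower. That share includes genes with too few counts for edgeR, so it is not directly comparable with the 10.5%. At an unadjusted p of 0.05 edgeR had 6 lower and 0 higher (16.5% of all tested genes were lower at that level). The median log2 change of the 7 tested members was -1.48, beside -0.02 over all genes. In CPM the 3 KO-labelled libraries lay below the 3 labelled WT for each of the 7, a pattern that 19.4% of all tested genes showed. In tissue RNA, fewer cells of a type and less RNA per cell cannot be told apart.

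**Figure D1:**
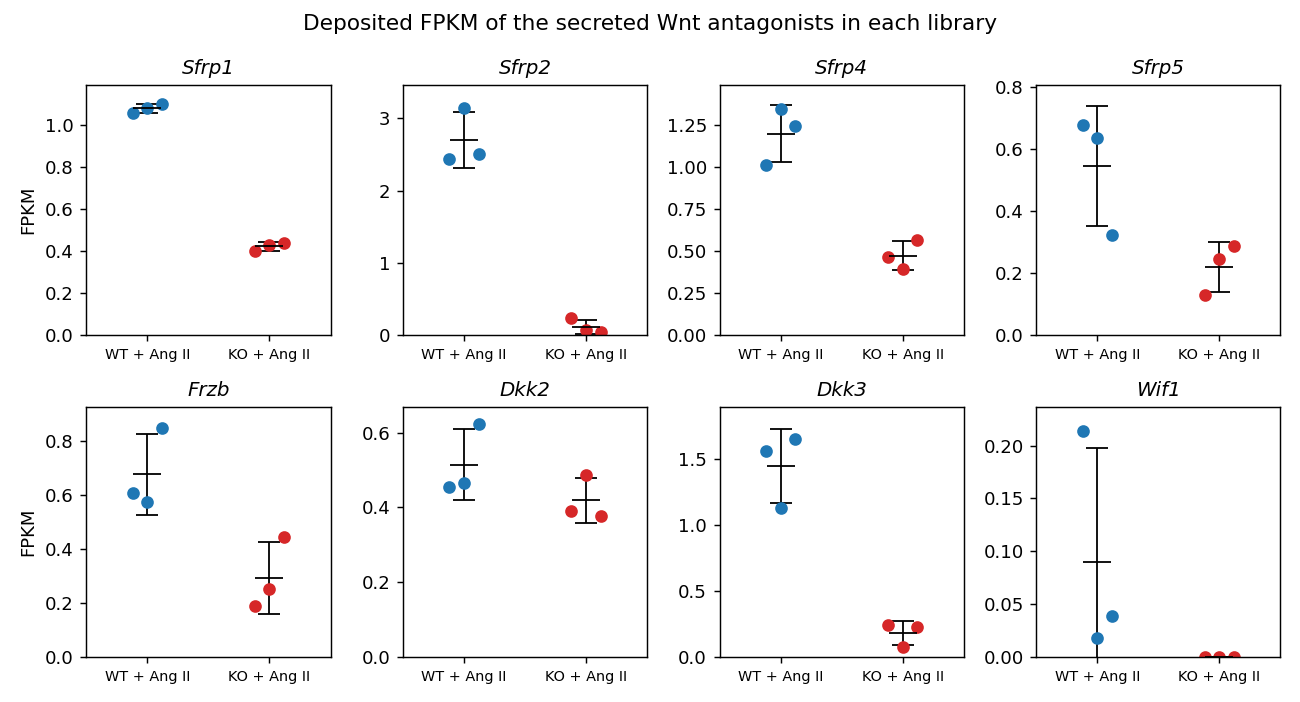
Deposited FPKM (y axis, fragments per kilobase of gene, scaled to the library total) of the 8 genes in each library, with 1 panel and 1 linear scale per gene. Points are libraries, and bars are the mean and SD of 3 (the bar of Wif1 is cut at 0). Sfrp2 went from between 2.44 and 3.14 to at most 0.23, while Dkk2 overlapped between the groups on this scale.

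Sfrp2, a Frizzled-related protein of fibroblasts and other stromal cells, had the highest FPKM of the 8 in the WT-labelled libraries and the largest fall. Its counts were 414, 495 and 374 in the WT-labelled libraries and 36, 13 and 8 in the KO-labelled ones. All 3 of the latter were low, and library 1 held most of what remained. FPKM, which corrects for gene length, was 2.70 ± 0.386 against 0.117 ± 0.0987 (SD, n = 3 each). The log2 change was -4.68 (SE 0.44, 95% interval -5.65 to -3.70, adjusted p = 2.7e-05 by edgeR's quasi-likelihood test), and 0.626% of tested genes had a lower one. An excess of low counts were multiples of 4, so 1 read pair may add several counts and the lowest of these values may rest on very few pairs. Sfrp2 passed the filter on low counts through the WT-labelled libraries. Without KO-labelled library 1 the change was -5.54, and over all 6 fits that each left out 1 library it lay between -5.54 and -4.31.

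The Sfrp2 gene (ENSMUSG00000027996) lies on chromosome 3 from 83766321 to 83774316 on the plus strand of GRCm38, with 5 merged exon blocks in GENCODE. An antisense gene, Gm26771, overlaps its exons, and since the strand setting of the counting is not given, reads of the pair cannot be told apart. That gene had 0 to 10 counts per library. Promoter sequences from RefSeq (GRCm38.p6) were matched for 5 of the 8 genes, and for Sfrp2, Dkk2 and Sfrp5 the RefSeq start was also the GENCODE start. The 250 bases before the start are shown for these 3 because their starts were equal. They include the gene with the largest fall and 2 genes that did not pass. Capitals mark matches, on either strand, to the TCF/LEF core CTTTGA, its variant with a final T, which is CTTTGT, the element CAGAC bound by SMAD proteins, and the TATA box TATAAA. The matches do not overlap each other. The windows, written 5′ to 3′ on the gene's strand, are chr3:83766071-83766320 (plus strand) for Sfrp2, chr3:132085042-132085291 (plus strand) for Dkk2 and chr19:42202253-42202502 (minus strand) for Sfrp5.
Sfrp2: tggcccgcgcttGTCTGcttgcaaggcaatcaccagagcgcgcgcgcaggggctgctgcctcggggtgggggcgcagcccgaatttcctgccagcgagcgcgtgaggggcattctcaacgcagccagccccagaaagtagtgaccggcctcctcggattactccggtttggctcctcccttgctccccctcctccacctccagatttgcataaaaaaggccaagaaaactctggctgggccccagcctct
Dkk2: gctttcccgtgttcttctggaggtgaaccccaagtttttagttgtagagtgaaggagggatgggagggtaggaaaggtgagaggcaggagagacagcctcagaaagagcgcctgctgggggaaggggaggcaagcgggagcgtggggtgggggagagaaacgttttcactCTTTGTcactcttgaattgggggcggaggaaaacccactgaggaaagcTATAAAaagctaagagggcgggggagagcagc
Sfrp5: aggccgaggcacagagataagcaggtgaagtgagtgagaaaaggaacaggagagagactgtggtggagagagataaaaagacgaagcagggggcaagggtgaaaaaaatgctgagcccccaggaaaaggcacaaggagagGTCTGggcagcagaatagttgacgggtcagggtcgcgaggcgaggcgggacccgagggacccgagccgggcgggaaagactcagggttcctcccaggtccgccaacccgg
Counted back from the start, CAGAC was matched on the minus strand from -238 to -234 in Sfrp2 and from -110 to -106 in Sfrp5. Dkk2 held CTTTGT from -80 to -75 and TATAAA from -32 to -27. Of 32851 windows of this length, 42.2% held CAGAC, 27.6% held either TCF/LEF core and 12.4% held TATAAA on either strand, so such matches are common and describe letters only. The GC content of the windows was 63.6% for Sfrp2, 55.6% for Dkk2 and 59.6% for Sfrp5, beside a median of 52.4% over all windows.

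Sfrp1, which antagonises several Wnt proteins, had 365, 346 and 334 counts in the WT-labelled libraries and 126, 147 and 151 in the KO-labelled ones. The groups were far apart, and each was even. FPKM went from 1.08 ± 0.0199 to 0.424 ± 0.0208 (SD, n = 3 each), and the log2 change was -1.49 (SE 0.18, adjusted p = 0.00019 by edgeR), or 2.82-fold lower. Leaving out any 1 library kept it between -1.54 and -1.43. The gene (ENSMUSG00000031548) spans 23411502 to 23449632 on chromosome 8, plus strand, and no annotated gene overlaps it.

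Sfrp4, a Frizzled-related protein best known from bone, had 332, 411 and 360 counts in the WT-labelled libraries and 139, 127 and 187 in the KO-labelled ones. The groups did not overlap. The log2 change was -1.48 (SE 0.22, adjusted p = 0.00066 by edgeR), close to that of Sfrp1, and lay between -1.66 and -1.36 with 1 library left out. Sfrp4 (ENSMUSG00000021319) lies on chromosome 13 from 19623104 to 19632994, plus strand.

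Frzb, the Frizzled-related protein first described in cartilage, had 155, 137 and 191 counts against 44, 63 and 113. Library 3 of each group was the highest. The log2 change was -1.33 (SE 0.38, 95% interval -2.16 to -0.50, adjusted p = 0.027 by edgeR). The call was lost in 5 of the 6 fits that each left out 1 library. With WT-labelled library 1, 2 or 3 left out the adjusted p was 0.054, 0.051 or 0.096, with KO-labelled library 1 or 2 left out it was 0.081 or 0.084, and without KO-labelled library 3 it was 0.0087 and the change -1.78. Frzb (ENSMUSG00000027004) lies on chromosome 2 from 80411970 to 80447625, minus strand, and its RefSeq start lies 229 bases inside the GENCODE gene, so its promoter is not shown.

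Sfrp5, a Frizzled-related protein known from fat tissue, where it is described as an antagonist of WNT5A, had 102, 89 and 43 counts in the WT-labelled libraries and 18, 37 and 43 in the KO-labelled ones. The count of WT-labelled library 3 equalled that of KO-labelled library 3. FPKM was 0.545 ± 0.194 against 0.221 ± 0.0805 (SD, n = 3 each), with a log2 change of -1.44 (SE 0.53, 95% interval -2.62 to -0.27) and an adjusted p of 0.080 by edgeR. The estimate was thus as large as that of Sfrp1 and Sfrp4, with a wider error. Without WT-labelled library 3 the adjusted p was 0.047 (change -1.73), DESeq2 gave 0.015, and edgeR on counts divided by 4 gave 0.037. In the other 5 fits with 1 library left out it was not called (change of -1.16 at the smallest, adjusted p up to 0.21), nor was it by edgeR without the filter on low counts (0.12) or by limma on unfiltered FPKM (0.16). Sfrp5 (ENSMUSG00000018822) lies on chromosome 19 from 42197971 to 42202252, minus strand. Fat markers were abundant in both groups: the summed level of 16 adipocyte markers was 4944 to 4979 CPM in the WT-labelled libraries and 5218 to 5255 CPM in the KO-labelled ones. Of these markers 5 were lower (Pparg, Cidec, Car3, Lep and Fabp4) and 8 higher (Ucp1, Lpl, Plin4, Retn, Pnpla2, Cfd, Cidea and Lipe), beside 10.5% and 11.5% of all tested genes. The log2 change was 0.75 for Ucp1 and 0.43 for Lpl. The part of fat in these values was not tested.

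The Dickkopf genes differed from each other in estimate. Dkk3 had 412, 278 and 386 counts in the WT-labelled libraries and 59, 19 and 61 in the KO-labelled ones. Library 2 was the lowest of each group, and the groups were far apart. FPKM went from 1.45 ± 0.278 to 0.181 ± 0.0939 (SD, n = 3 each), a log2 change of -3.13 (SE 0.38, 95% interval -3.98 to -2.29, adjusted p = 0.00018 by edgeR), or 8.76-fold lower. It lay between -3.37 and -2.75 with 1 library left out, and 1.23% of tested genes had a lower change. Dkk3 (ENSMUSG00000030772) lies on chromosome 7 from 112116017 to 112159057, minus strand.

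Dkk2, which binds LRP5 and LRP6 and can act as an antagonist or a weak agonist, had 133, 126 and 161 counts against 104, 140 and 110. In raw counts and in FPKM (0.454, 0.465 and 0.624 against 0.391, 0.487 and 0.378) KO-labelled library 2 lay above 2 of the WT-labelled libraries. In CPM, where library scaling is included, the groups just failed to overlap, at 1.98 to 2.57 against 1.46 to 1.92. The log2 change was -0.44 (SE 0.28, adjusted p = 0.31 by edgeR), and its 95% interval of -1.06 to 0.17 includes no change. That interval overlapped those of Sfrp4, Frzb and Sfrp5 and lay above those of Sfrp1, Dkk3 and Sfrp2, although no difference between genes was tested. Dkk2 (ENSMUSG00000028031) spans 132085292 to 132180304 on chromosome 3, plus strand.

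Wif1, the Wnt inhibitory factor, was close to absent. It had 41, 4 and 7 counts in the WT-labelled libraries and 0 in each KO-labelled library. WT-labelled library 1 held 41 of the 52 counts, and the other 2 lay under the floor of 12 counts per library that a count of 0 allows (3 read pairs at 4 counts each, for counting error only). Against that floor the mean level was at least 1.58-fold lower in the KO-labelled libraries, a bound that rests on library 1. Wif1 was left out by the filter on low counts in edgeR. DESeq2 gave an adjusted p of 0.0014 and edgeR without the filter 0.056. Wif1 (ENSMUSG00000020218) lies on chromosome 10 from 121033960 to 121100650, plus strand.

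The summed FPKM of the 8 genes was 8.02, 8.38 and 8.33 in the WT-labelled libraries and 2.04, 1.95 and 2.39 in the KO-labelled ones, and its makeup differed between the groups. In the WT-labelled libraries, Sfrp2 gave 30.5%, 37.4% and 30.0% of the sum and Dkk3 19.4%, 13.5% and 19.9%. In the KO-labelled ones the shares of Sfrp2 were 11.3%, 3.82% and 1.96%, and those of Dkk3 11.8%, 3.73% and 9.57%. Dkk2 gave 5.54% to 7.48% of the sum in the first group and 15.8% to 24.9% in the second, while its own FPKM overlapped between the groups. On the FPKM scale the order in the WT-labelled libraries was Sfrp2, Dkk3, Sfrp4, Sfrp1, Frzb, Sfrp5, Dkk2 and Wif1, in which Sfrp2 lay above all values of Dkk3, Sfrp1 above those of Frzb and Dkk2 above those of Wif1, and other neighbours overlapped. In the KO-labelled libraries the order was Sfrp4, Sfrp1, Dkk2, Frzb, Sfrp5, Dkk3, Sfrp2 and Wif1, and of the neighbours in that order all overlapped except Sfrp2 and Wif1. By mean FPKM over the 6 libraries Sfrp2 exceeded 59.2% of the tested genes, Sfrp4 47.2% and Sfrp5 30.3%.

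**Figure D2:**
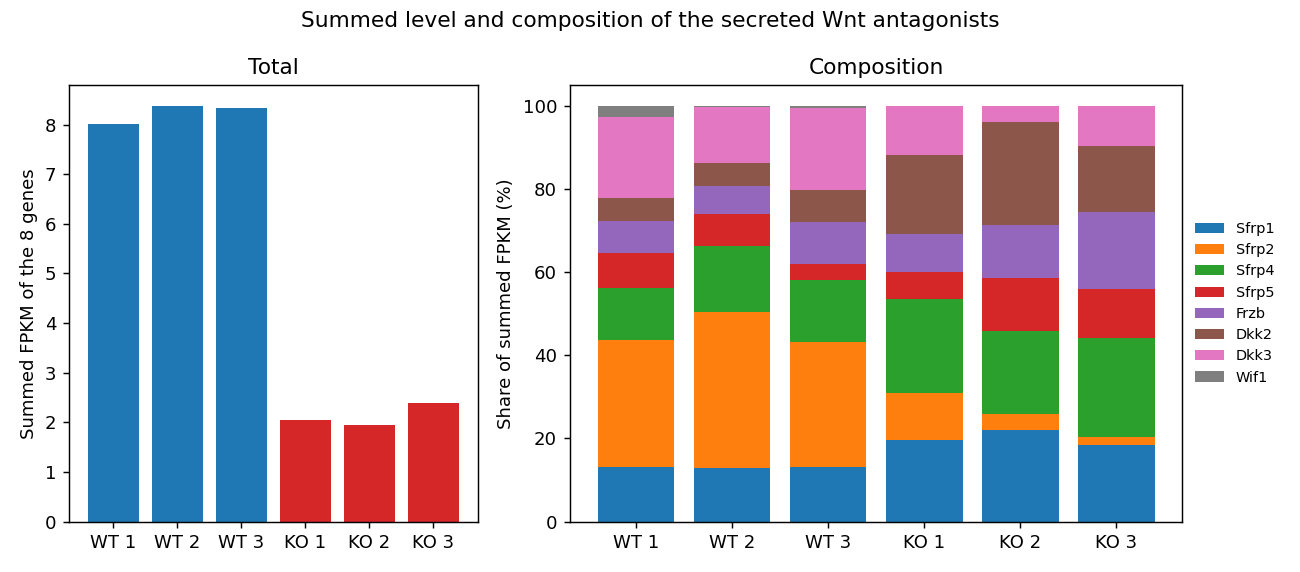
Left, summed FPKM of the 8 genes in each library (bars from 0). Right, the share of each gene in that sum, in percent. The sum lay between 8.02 and 8.38 in the WT-labelled libraries and between 1.95 and 2.39 in the KO-labelled ones, and the share of Sfrp2 was at most 11.3% in the latter.

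Fibroblast markers also differed between the groups, and which cells made the antagonist RNA was not tested. Over all tested genes edgeR called 10.5% lower and 11.5% higher. Of 20 fibroblast markers 17 were lower and 0 higher by edgeR (19 and 1 by DESeq2, and at an unadjusted p of 0.05 as well), with a median log2 change of -1.12, or -0.95 with Tcf21, whose KO-labelled counts were all 0, at its bound. Col1a2, a chain of type I collagen, fell by 2.18 and Dcn, the proteoglycan decorin, by 1.69 on the log2 scale. The summed level of the 20 markers was 1459 to 1492 CPM in the WT-labelled libraries and 753 to 759 CPM in the KO-labelled ones. Tcf21 passed the filter on low counts through the WT-labelled libraries only. It was left out of the ranking of changes, since a count of 0 gives only a bound. Of the other 19 markers 0 had a lower log2 change than Sfrp2 or Dkk3, 5 had a lower one than Sfrp1 or Sfrp4, 7 a lower one than Frzb and 16 a lower one than Dkk2.

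Set against that summed level, Sfrp2 had 4.23, 5.59 and 4.01 CPM per 1000 CPM of fibroblast markers in the WT-labelled libraries and 0.666, 0.236 and 0.146 in the KO-labelled ones. Dkk3 had 4.20, 3.14 and 4.13 against 1.09, 0.345 and 1.11, and Sfrp1 had 3.73, 3.91 and 3.58 against 2.33, 2.67 and 2.75. Relative to the summed markers these 3 genes were lower in every KO-labelled library than in any labelled WT. For Sfrp1 this depends on the markers chosen, since 5 of the 19 ranked markers had a lower log2 change. Dcn (3.23-fold lower) and Col1a2 (4.52-fold) were among these 5, against 2.82-fold for Sfrp1. For Sfrp4 (3.39 to 4.65 against 2.31 to 3.40), Frzb (1.55 to 2.05 against 0.814 to 2.06) and Sfrp5 (0.460 to 1.04 against 0.333 to 0.783) the groups overlapped, although those of Sfrp4 did not when the 3 chains of type I and III collagen were left out of the markers (4 to 5.50 against 2.58 to 3.80). Dkk2 went the other way, at 1.36 to 1.72 against 1.92 to 2.54. The ratios of these 4 genes depend on the markers chosen as well. Of the 19 ranked markers 5 had a lower log2 change than Sfrp4 or Sfrp5, 7 a lower one than Frzb and 16 a lower one than Dkk2. With 3 libraries against 3 an exact permutation test of such a ratio cannot go below a p of 0.10, so none is given.

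**Figure D3:**
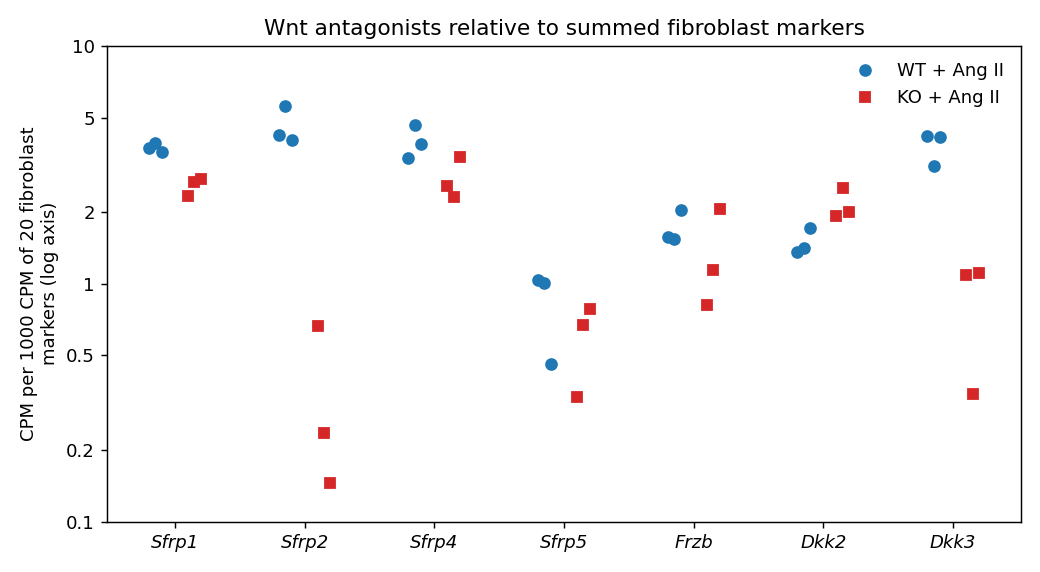
CPM of 7 genes per 1000 CPM of the 20 fibroblast markers in each library (log axis, circles for WT and squares for KO). Sfrp2 lay between 4.01 and 5.59 in the WT-labelled libraries and at 0.666 or less in the KO-labelled ones, and Dkk2 lay at 1.92 or more in the KO-labelled libraries against at most 1.72.

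Markers of other cell types differed as well, and their part in the antagonist values was not tested. The counts of calls stand beside 10.5% lower and 11.5% higher over all tested genes. Of 14 tested tendon and cartilage markers 10 were lower and 0 higher (0 also at an unadjusted p of 0.05 and by DESeq2 and limma), with Comp at -3.75 and Chad at -5.59, and their summed level was 162 to 175 CPM against 53.5 to 59.5 CPM. Chad had 447, 393 and 487 counts against 8, 8 and 15, so its KO-labelled values rest on few read pairs. It passed the filter on low counts through the WT-labelled libraries. Acan and Col2a1, which define cartilage, were too low to be tested. Of 15 smooth muscle markers 13 were lower and 1, Synpo2, higher, with Acta2, the smooth muscle actin, at -2.07 and Tagln at -1.92, and 645 to 660 CPM against 281 to 285 CPM. Among the lower ones Sost and Myocd, and Kera among the tendon markers, had 0 counts in every KO-labelled library. They passed the filter on low counts through the WT-labelled libraries only. Sost is counted again among the Wnt inhibitors below. Skeletal muscle markers had 12 of 20 members higher and 5 lower (Tnnt1, Pvalb, Mb, Tnni1 and Myh7), with 38865 to 40065 CPM in the KO-labelled libraries. Their median log2 change was 0.29, and the 2 of smallest p, Myh4 and Des, were at 1.43 and 1.23. Of 15 endothelial markers 3 were higher (Vwf, Flt1 and Pecam1) and 4 lower (Egfl7, Cldn5, Kdr and Tie1), with Vwf at 1.27, Egfl7 at -0.54 and sums of 929 to 954 against 912 to 934 CPM. Macrophage markers had 6 of 11 lower (232 to 242 against 163 to 168 CPM) with Lyz2 at -0.79. Schwann cell markers had 3 of 9 lower, Mbp, Pmp22 and Sox10 (48.4 to 58.9 against 31.4 to 33.0 CPM) with Mbp at -1.54. Of 7 tested epithelial and mesothelial markers 4 were lower, Epcam, Cdh1, Krt8 and Krt18 (14.6 to 18.6 against 3.77 to 6.68 CPM), and of these Epcam and Cdh1 had 0 counts in every KO-labelled library, at least 9.23-fold and 8.62-fold lower. Epcam and Cdh1 also passed the filter through the WT-labelled libraries only.

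The genes through which these antagonists act were described by role. Each count of edgeR calls here and in the next paragraphs stands beside 10.5% lower and 11.5% higher over all tested genes. Of 12 other extracellular Wnt inhibitors 6 were tested, of which 3 were lower and 1 higher (median log2 change -1.37). Igfbp4, an IGF-binding protein that also binds Frizzled and LRP6, went from 96.0 ± 5.58 to 39.0 ± 3.09 CPM (SD, n = 3 each, log2 change -1.30, adjusted p = 5.8e-07 by edgeR). Gpc3, a glypican that can bind Wnt proteins, fell by 2.51 (adjusted p = 1.0e-05). Sost, encoding the LRP5 and LRP6 inhibitor sclerostin, which is also made by aortic smooth muscle, had 30, 17 and 44 counts against 0 in each KO-labelled library, at least 2.88-fold lower. Kremen1, a receptor for Dickkopf proteins, rose by 0.44 (adjusted p = 0.019). This call did not hold without WT-labelled library 1 or 3 (adjusted p = 0.062 and 0.054) or without KO-labelled library 1 or 2 (0.069 and 0.081). Apcdd1, a membrane-bound inhibitor, was at -0.73 (adjusted p = 0.052). Dkk1, the best known Dickkopf, had between 0 and 8 counts in a library, and Notum had 0 in all 6.

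None of the 9 tested Wnt ligands, of 16 in the table, passed edgeR's test. At an unadjusted p of 0.05 there were 2, both lower, DESeq2 called 3 lower and limma on FPKM called 0. Wnt4 was the ligand with the highest FPKM, at 1.90 ± 0.111 against 1.78 ± 0.188 (SD, n = 3 each), with a log2 change of -0.25 (adjusted p = 0.19). Wnt5a, a ligand of the beta-catenin-independent branch, was at -0.90 (adjusted p = 0.057 by edgeR, 0.012 by DESeq2 and 0.045 by edgeR on counts divided by 4). Wnt6 had 69, 34 and 38 counts against 0, 17 and 3 (log2 change -2.98, adjusted p = 0.080), and without KO-labelled library 2 the change was -5.02 (adjusted p = 0.021). The summed FPKM of the ligands was 3.94 to 4.17 in the WT-labelled libraries and 3.35 to 3.98 in the KO-labelled ones. On this scale the groups overlapped for the ligands and not for the antagonists. In CPM neither sum overlapped. The ligands had 18.2 to 19.8 against 14.8 to 16.2 CPM, and the antagonists 29.1 to 31.4 against 7.39 to 9.27 CPM. The ratio of the summed FPKM of the antagonists to that of the ligands was 1.92, 2.11 and 2.11 against 0.512, 0.582 and 0.695.

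Among the genes of Wnt secretion and the R-spondins, which enhance Wnt signals through LGR receptors, 1 of 5 tested was lower and 1 higher. Rspo1 had 108, 79 and 74 counts against 32, 26 and 35 (log2 change -1.67, adjusted p = 0.017), and the call was lost without WT-labelled library 1 (0.066) or KO-labelled library 2 (0.051). Rspo4 had 0, 3 and 0 counts against 31, 20 and 19 (adjusted p = 0.040), and its call was lost in 5 of the 6 fits with 1 library left out. It passed the filter on low counts through the KO-labelled libraries only, and its WT-labelled counts lay under the floor of 12 counts per library. Wls, the carrier of Wnt proteins to the cell surface, was at -0.49 (adjusted p = 0.060). Of 18 tested receptors and co-receptors 1 was lower and 2 were higher, with a median of -0.11. Lrp5 rose from 9.07 ± 1.34 to 14.0 ± 1.60 CPM (log2 change 0.63, adjusted p = 0.0071), Lrp6 was at -0.47 (adjusted p = 0.055), and Fzd1 fell by 1.56 (adjusted p = 0.014). Fzd4, the Frizzled with the highest FPKM, was higher by 0.23 (adjusted p = 0.038), a call that no fit with a library left out kept (adjusted p of 0.059 to 0.13). The call for Fzd1 was lost without library 1 of either group (0.080 and 0.052).

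Intracellular components had 5 of 22 members lower (Ctnnb1, Tcf7l1, Ctnnbip1, Gsk3b and Amer1) and 1 higher (Dvl3), with a median of -0.10. With 1 library left out, the call was lost in 5 of 6 fits for Gsk3b (adjusted p of 0.053 to 0.14 in these), in 4 for Ctnnbip1 (0.059 to 0.12) and in 4 for Dvl3 (0.053 to 0.086). Ctnnb1, encoding beta-catenin, fell by 0.27 (adjusted p = 0.0025), a small change that depended on the scaling: by limma on FPKM as deposited it was -0.11 (adjusted p of 0.16 to 0.18), and after median-ratio scaling -0.31 (0.0027). Tcf7l1, a transcription factor of the pathway that mostly represses, fell by 0.78 (adjusted p = 0.0055). Feedback and target genes had 7 of 14 tested members lower and 1 higher, with a median of -1.55. DESeq2 called 8 lower and 1 higher, and limma on FPKM called 2 lower and 0 higher, or 3 and 1 without a filter. Bambi was called lower at an adjusted p of 0.048 by edgeR. Ccn4 had 119, 29 and 67 counts against 13, 0 and 0, and passed the filter on low counts through the WT-labelled libraries only. Ccnd1, cyclin D1, went from 23.0 ± 0.944 to 5.76 ± 1.19 CPM (3.99-fold lower, adjusted p = 3.7e-06), Ccn5 fell by 2.65, and the pathway inhibitors Nkd1 and Nkd2 fell by 1.89 and 1.73, while Tnfrsf19 rose by 0.93 (adjusted p = 0.023, lost in 4 of 6 fits with a library left out). Axin2, the most general feedback target and named after its values were seen, had 154, 159 and 146 counts against 154, 196 and 138 (log2 change -0.11, adjusted p = 0.82). Genes of this list are also expressed under other signals, and the part of Wnt signalling or of cell types in their values was not tested.

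**Figure D4:**
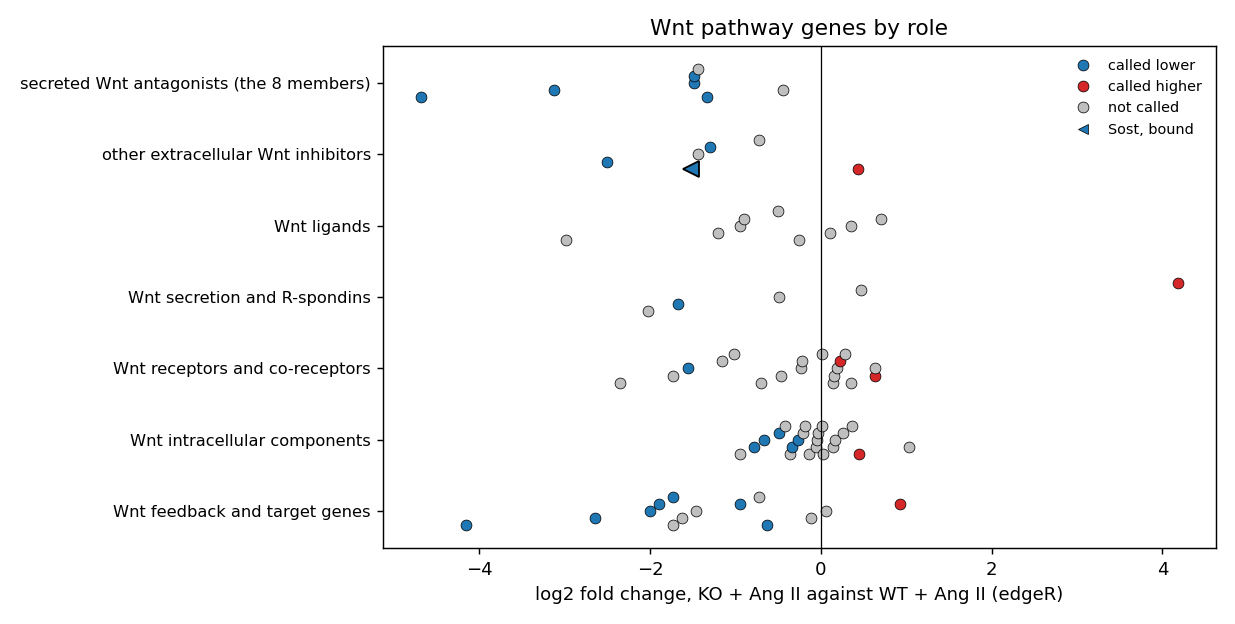
Log2 fold change (x axis) of each tested gene by role, as fitted by edgeR, with called genes in colour and others in grey, and Sost drawn at its bound (-1.52). Of the antagonists 5 of 7 were called lower, beside 3 of 6 other extracellular inhibitors, 0 of 9 ligands, 1 of 5 secretion genes and R-spondins, 1 of 18 receptors, 5 of 22 intracellular components and 7 of 14 feedback and target genes. Over all tested genes 10.5% were called lower and 11.5% higher, and no difference between roles was tested.

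By Pearson's r of log2 CPM over the 6 libraries, the genes most like Sfrp2 among 7600 with a mean of at least 5 CPM were Pak2 (r = 0.9977), Hmgn1 (0.9968) and Trim2 (0.9967). All 6 points share the difference between the groups, and r does not read the size of a change: the log2 changes of these genes were -0.63, -0.54 and -0.57, beside -4.68 for Sfrp2.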

How the data were processed

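One table of 33919 genes covered 6 libraries, 3 per group by the genotype and treatment labels. The authors deposited whole-number counts per gene without normalization, and FPKM values per the file headers. Bowtie 0.12.2, HISAT2 2.0 and the build mm8 are listed in the submitters' processing notes without their roles. The counting program and its strand setting are not stated in the labels or file headers. Coordinates in the table equalled those of GENCODE release 21 on GRCm38 for 91.2% of shared genes, so GRCm38 is used. Of counts from 1 to 40, 33.0% to 34.9% per library were multiples of 4 (25% by chance), so counting intervals would be too narrow.

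Counts were tested with edgeR 4.0.16 (TMM, filterByExpr, quasi-likelihood test, two-sided, Benjamini-Hochberg adjustment over 16620 genes, threshold 0.05) in R 4.3.3, and the code was tested on simulated data. CPM uses TMM library sizes. DESeq2 1.42.0 and limma 3.58.1, the latter on log2(FPKM + 1) with a pseudocount of 1 or 0.1, were among 16 alternatives. The members and gene lists were chosen with earlier results of these data known. Named genes are the members, Otud1, up to 5 genes of smallest p per pathway list (and defining genes near 0), up to 2 per marker list, and the 3 most like Sfrp2; other names were chosen after their values were seen.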

Additional observations from a re-analysis of the deposited data

How the results depend on the processing

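Between 4 and 7 antagonists were called lower and 0 higher under all 16 alternatives, and with 1 library left out the count lower was 4 to 5. Sfrp1, Sfrp2, Sfrp4 and Dkk3 were called lower in each alternative. Over all genes, the count called lower was 1751, against 2647 with DESeq2 (28400 genes tested), 778 with limma on log2(FPKM + 1), 774 with a pseudocount of 0.1 and 754 without the filter on low values. On FPKM as deposited the median gene lay at 0.15 (pseudocount 1) or 0.20 (pseudocount 0.1), and 78.0%, 77.9% and 71.2% (no filter) of calls were higher, against 52.1% by edgeR and 49.9% after median-ratio scaling of FPKM. Only 4 of the 8 antagonists passed the FPKM filter of 1. With 1 library left out, 1411 to 1468 genes were called lower and 1465 to 1703 higher. For single named genes, 778 values kept direction and call, 70 lost the call, 24 gained it, and 1 reversed: Porcn, at 0.47 with all libraries, ranged from -0.05 (without KO-labelled library 3) to 0.84 with 1 library left out. The cause was not tested.

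Deviations of same-numbered libraries correlated at 0.10, -0.03 and 0.06, and not every library correlated best with its own number. With 3 libraries per group this cannot show whether replicate numbers pair the libraries, and the labels do not say. With the replicate number as a block, 1552 genes were called lower and 1703 higher, and 5 antagonists lower. Depth limits Wif1 and the KO values of Sfrp2, which rest on few read pairs.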
